A study of Sus scrofa with 9 samples.

Results

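Cholesterol leaves a cell by being handed to lipoprotein particles outside it, and the genes that carry out and control that step in the aortic wall are described here. The set held 7 genes of the 21357 in the deposited table. They were chosen by name for their role in cholesterol efflux or in its control by the liver X receptors (LXRs), not by their measured values. The table named 5 of them, and NR1H2 and PLTP, which it left without a name, were found by their gene identifier and NCBI gene number. Each had a single row.

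The samples were abdominal aortas of Tibetan minipigs, all males, a breed of small pig in which diet-induced vascular disease is modelled. The normal control group (NC) ate a normal diet for 24 weeks. The other pigs ate a high-fat diet, which the study's methods describe for H24 as enriched in cholesterol too (with shortening oil and egg yolk powder), for 8 weeks in the hypercholesterolemia group (H8) and for 24 weeks in the atherosclerosis group (H24). Each group had 3 RNA-seq libraries, and the study's methods describe young animals, a few months old at purchase, with 3 pigs taken from each of NC and H24. The age and selection of the H8 pigs are not given in the sources used here, and NC and H8 differed in weeks of feeding as well as in diet, so these cannot be told apart. The labels do not say which pig gave which library. By the methods the 3 libraries of NC and of H24 are different pigs, while for H8 nothing states it, so p-values that use H8 measure the spread between these samples.

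Macrophages in the artery wall take up modified lipoproteins and must dispose of the cholesterol. ABCA1, a membrane transporter, passes cholesterol to lipid-poor apolipoproteins, and ABCG1 passes it to mature high-density lipoprotein (HDL). Oxysterols, which form when cholesterol accumulates, activate the LXRs, nuclear receptors that pair with retinoid X receptors and switch on ABCA1, ABCG1, APOE and PLTP, among other genes.

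In H24 aortas 6 of the 7 genes were higher than in NC, and NR1H2, which encodes LXRβ, was not among them. APOE and PLTP differed by the largest folds, 46.7 and 42.2, and both folds were smaller without H24 replicate 3. In H8 aortas 4 of the 7 were higher than in NC: the transporters ABCA1 and ABCG1, and the secreted lipid carriers APOE and PLTP. By the thresholds below, 9.95% of all genes were higher in H24 over NC, 5.11% in H8 over NC and 7.22% in H24 over H8. NR1H3, the gene of LXRα, and SCARB1, the gene of the HDL receptor SR-BI, were higher in H24 than in either other group. For SCARB1 neither difference passed the thresholds below without H24 replicate 3, nor in most other fits that left out 1 library. A gene was called with the study's thresholds, which ask for a log2 difference of more than 1 either way together with p under 0.05 before adjustment, the p here coming from edgeR's quasi-likelihood test. None of the 7 had a Benjamini-Hochberg adjusted p under 0.05 in any of the 3 comparisons.

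Levels are given as FPKM, fragment counts scaled by transcript length and library size, which allows levels to be compared between genes. Library totals ran from 44094263 to 75787978 counts, so that 3 counts corresponded to 0.0396 to 0.0680 CPM, where CPM is counts scaled by the library total. Smooth muscle markers were detected in every library, 7 of 7, as the labelled tissue requires. H24 replicate 3 stood apart: its summed smooth muscle marker FPKM was 1747, against 8187 to 13987 in the other libraries, and its summed macrophage marker FPKM was 2004, against 25.9 to 312. H8 replicate 2 had the lowest macrophage sum of its group, 33.5, within the NC range of 25.9 to 35.0, while H8 replicates 1 and 3 stood at 191 and 91.7. All 11 macrophage markers were detected in all 9 libraries. Libraries come from whole tissue, where more cells of a type and more RNA per cell cannot be told apart.

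**Figure D1:**
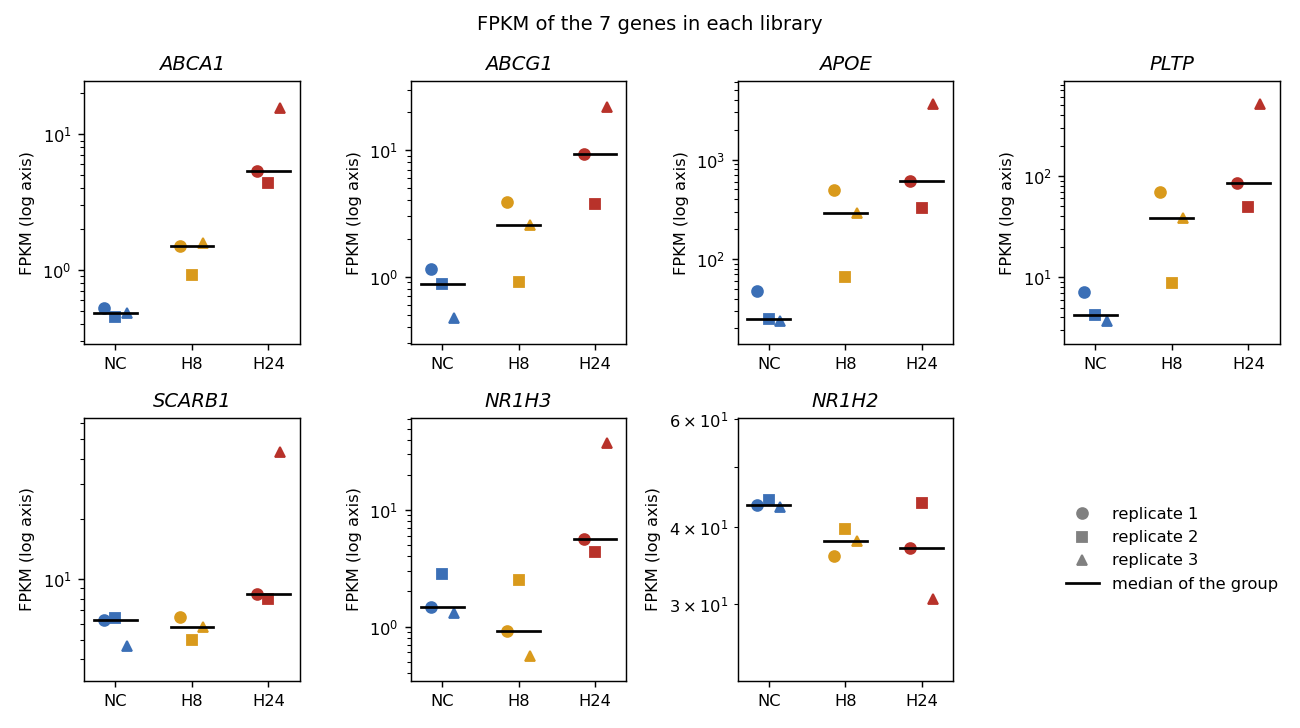
FPKM (log axis) of each of the 7 genes in the 9 libraries, by group, with circles, squares and triangles for replicates 1, 2 and 3 and a line at the median of each group. In H24 replicate 3, 6 of the 7 genes had their highest value, and the NR1H2 panel spans only 30.6 to 44.3 FPKM.

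ABCA1 lies on the minus strand of chromosome 1 (246147515 to 246257380, Sscrofa11.1). Its FPKM was 0.527, 0.454 and 0.483 in NC replicates 1 to 3, 1.52, 0.919 and 1.59 in H8, and 5.35, 4.36 and 15.5 in H24. Every H8 library lay above every NC library, and every H24 library above every H8 library. The group means were 0.488 ± 0.0367, 1.34 ± 0.369 and 8.40 ± 6.17 FPKM (SD, n = 3 each). The log2 fold change of H24 over NC was 4.08 (SE 0.55), a 17.0-fold difference, with an adjusted p of 0.129 in edgeR's quasi-likelihood test. H8 exceeded NC by 1.58 (SE 0.26) on the log2 scale, adjusted p = 0.126 in the same edgeR test. H24 exceeded H8 by 2.46 (SE 0.51), edgeR adjusted p = 0.336. ABCA1 was called in all 3 comparisons and stayed called when any single library was left out, with H24 over NC at 3.28 and H24 over H8 at 1.69 without H24 replicate 3.

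ABCG1 lies on the plus strand of chromosome 13 (205561927 to 205630797). It measured 1.15, 0.879 and 0.473 FPKM in NC, 3.88, 0.910 and 2.57 in H8, and 9.31, 3.76 and 21.8 in H24. H8 replicate 2 fell inside the NC range and H24 replicate 2 just below the highest H8 library, so only NC and H24 were fully separated. The log2 fold change was 3.77 (SE 0.70) for H24 over NC, with an edgeR adjusted p of 0.132. For H8 over NC it was 1.66 (SE 0.52), with an edgeR adjusted p of 0.240. That call was lost without H8 replicate 1, at 1.16, while H24 over NC was 2.93 without H24 replicate 3. H24 over H8 was 2.07 (SE 0.70, edgeR adjusted p = 0.341), and it no longer passed without H8 replicate 2 (1.70), H8 replicate 3 (2.08) or H24 replicate 3 (1.25).

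Set per length, the 2 transporters were the lowest of the 7 genes in NC, and their NC ranges overlapped. ABCG1 stood at 0.864 to 2.55 times ABCA1 across the 9 libraries, and in each group those ratios overlapped those of the others.

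APOE encodes apolipoprotein E, which macrophages secrete and which accepts cholesterol and carries it to lipoprotein receptors. The gene is short, 51372241 to 51375617 on the plus strand of chromosome 6. It measured 47.5, 25.2 and 23.8 FPKM in NC, 494, 65.8 and 287 in H8, and 610, 323 and 3596 in H24. All H8 and all H24 libraries exceeded all NC libraries, while H8 replicate 1 exceeded H24 replicate 2. By FPKM, APOE ranked between 811 and 1781 among all genes in the NC libraries and at 43, 112 and 6 in H24 replicates 1 to 3. In H24 replicate 3 it took 0.557% of all counts.

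The log2 fold change of APOE was 5.54 (SE 1.04) for H24 over NC, edgeR adjusted p = 0.132. Without H24 replicate 3 it was 3.83, a 14.2-fold difference, and the edgeR adjusted p was 0.00547. H8 over NC came to 3.24 (SE 0.66, edgeR adjusted p = 0.185), or 2.55 without H8 replicate 1. H24 over H8 was 2.25 with a 95% interval of -0.19 to 4.69 and was not called, and the value was 0.57 without H24 replicate 3. Of the fits that leave out 1 library, it passed in that without H24 replicate 2, at 2.71.

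PLTP encodes phospholipid transfer protein, which moves phospholipid between lipoproteins and remodels HDL. It is on the minus strand of chromosome 17 (48089537 to 48101728). It measured 7.18, 4.22 and 3.71 FPKM in NC, 68.7, 8.75 and 38.7 in H8, and 84.6, 49.0 and 509 in H24. As for APOE, NC was separated from both diet groups, and H8 replicate 1 exceeded H24 replicate 2. H24 over NC was 5.40 (SE 1.0) on the log2 scale, edgeR adjusted p = 0.132, and 3.70 without H24 replicate 3, edgeR adjusted p = 0.00516. H8 over NC was 3.04 (SE 0.66, edgeR adjusted p = 0.187), or 2.32 without H8 replicate 1. H24 over H8 was 2.30, interval -0.10 to 4.71, and not called, though it passed without H8 replicate 1 (3.01) or H24 replicate 2 (2.76) and was 0.64 without H24 replicate 3. By unadjusted p, APOE and PLTP were called in H24 over H8 by DESeq2 (2.27 and 2.32), with gene-wise dispersions (2.25 and 2.30) and in a fit of all 9 libraries (2.31 and 2.36).

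PLTP shares 431 bases with CTSA on the other strand, and APOE lies wholly within an unnamed gene on the other strand. Whether reads were counted by strand is not given in the sources used here, so reads of these overlaps cannot be told apart. CTSA, a lysosomal carboxypeptidase gene, was itself called higher in H24 than in NC, by 1.6 (edgeR adjusted p = 0.292), and the unnamed gene was not called (-1.10 in H24 over NC, edgeR adjusted p = 0.711).

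The ratio of APOE to PLTP FPKM was nearly constant. Across the 9 libraries APOE spanned a 151-fold range and PLTP a 137-fold range, while their ratio stayed between 5.96 and 7.53, a 1.26-fold range. The ratio averaged 6.33 ± 0.336 in NC, 7.38 ± 0.171 in H8 and 6.96 ± 0.323 in H24 (SD, n = 3 each). Every H8 ratio exceeded every NC ratio, which gave a two-sided exact permutation p of 0.1, the smallest possible with 3 against 3 libraries, and 0.231 after Benjamini-Hochberg adjustment over 30 ratio comparisons.

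**Figure D2:**
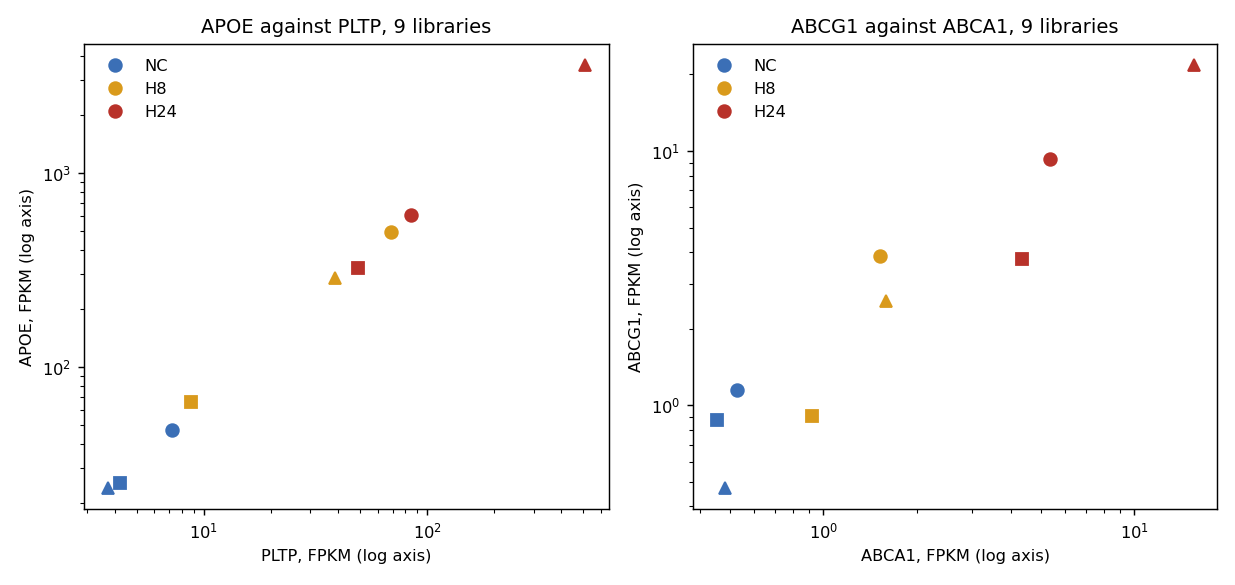
FPKM of APOE against PLTP (left) and of ABCG1 against ABCA1 (right) in the 9 libraries, on log axes, coloured by group with circles, squares and triangles for replicates 1, 2 and 3. APOE and PLTP fall along a line at a ratio of 5.96 to 7.53, and ABCG1 and ABCA1 scatter between 0.864 and 2.55.

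SCARB1 encodes scavenger receptor class B type I, which binds HDL and exchanges cholesterol with it, and lies on the plus strand of chromosome 14 (28301294 to 28393555). It measured 6.30, 6.44 and 4.64 FPKM in NC, 6.51, 4.97 and 5.76 in H8, and 8.44, 8.01 and 43.0 in H24. The NC and H8 values overlapped, and all 3 H24 values lay above them, replicates 1 and 2 by little and replicate 3 by far. H24 over NC was 1.76 (SE 0.68, edgeR adjusted p = 0.330) and H24 over H8 was 1.59 (SE 0.65, edgeR adjusted p = 0.355). Without H24 replicate 3 these fell to 0.48 and 0.35, and neither was called. The H24 over NC call was also lost without NC replicate 1 (1.80), 2 (1.86) or 3 (1.59), and the H24 over H8 call without H8 replicate 1 (1.66), 2 (1.55) or 3 (1.55). Limma on log2(FPKM + 0.1) called neither, at 1.3 and 1.31. H8 over NC was 0.12 with a 95% interval of -0.36 to 0.60.

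NR1H3 lies on the minus strand of chromosome 2 (15270789 to 15336804) with 6 transcript models. It measured 1.47, 2.82 and 1.31 FPKM in NC, 0.923, 2.48 and 0.561 in H8, and 5.62, 4.33 and 37.7 in H24. The NC and H8 libraries overlapped, with the second replicate highest in each, and all H24 libraries lay above both groups. The log2 fold change was 3.06 (SE 0.90) for H24 over NC, edgeR adjusted p = 0.217, and 3.32 (SE 1.02) for H24 over H8, edgeR adjusted p = 0.341. Both stayed called without H24 replicate 3, at 1.37 and 1.68, and H24 over H8 was 4.26 without H8 replicate 2. For H8 over NC the value was -0.32 with a 95% interval of -1.74 to 1.10. Leaving out H8 replicate 2 gave -1.27, which was called lower, as were 2.06% of all genes in that comparison.

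The NR1H3 gene model overlaps MADD, a signalling adaptor gene on the same strand, over 55414 bases, and ACP2, a lysosomal acid phosphatase gene on the opposite strand, over 2804 bases. MADD measured 7.00, 4.37 and 7.02 FPKM in NC, 8.29, 3.57 and 7.02 in H8, and 5.67, 6.67 and 9.07 in H24. It was lowest in NC replicate 2 and H8 replicate 2, where NR1H3 was highest within its group, so the split of reads between overlapping models is uncertain there. MADD did not pass in H24 over NC (0.21), H8 over NC (0.16) or H24 over H8 (0.02). ACP2 was called higher in H24 over H8, by 1.10 (edgeR adjusted p = 0.336), as NR1H3 was, and was at -0.64 in H8 over NC and 0.48 in H24 over NC, neither called. The summed FPKM of the adipocyte markers ADIPOQ, PLIN1, LEP, CIDEC and FABP4 was also highest in those replicates of NC and H8, 157 and 140, against 49.1 to 91.6 in the other NC and H8 libraries. In H8 replicate 2 FABP4 alone gave 139 of this sum, and without FABP4 the other markers summed to 35.3 in NC replicate 2 (10.0 and 14.6 in replicates 1 and 3) and to 1.18, 1.04 and 0.625 in H8 replicates 1 to 3, where replicate 2 was not the highest. The part of adipocytes in these NR1H3 values was not tested.

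NR1H2 lies on the plus strand of chromosome 6 (55238579 to 55245456). It measured 43.5, 44.3 and 43.0 FPKM in NC, 35.9, 39.7 and 38.0 in H8, and 37.0, 43.7 and 30.6 in H24. Its H8 values were all below its NC values, whereas H24 spread across both groups. No comparison was called in edgeR's quasi-likelihood test: H24 over NC was -0.25 (95% interval -0.77 to 0.26, adjusted p = 0.654), H8 over NC was -0.06 (-0.40 to 0.27, adjusted p = 0.877), and H24 over H8 was -0.21 (-0.80 to 0.38, adjusted p = 0.722). FPKM values carry no TMM factor, and scaled by library size alone H8 over NC was -0.22. The 3 intervals do not reach a log2 change of 1 in either direction.

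In NC and H8 libraries the NR1H3 level was 0.0148 to 0.0637 times that of NR1H2. In H24 the ratio was 0.152, 0.0991 and 1.23 in replicates 1 to 3, so that only in replicate 3 did the FPKM of NR1H3 exceed that of NR1H2. The NR1H3 model overlaps MADD on the same strand. Its FPKM, these ratios and its place in the order below therefore depend on an uncertain split of reads. Ordered by mean FPKM, NC read NR1H2, APOE, SCARB1, PLTP, NR1H3, ABCG1 and ABCA1, and NR1H2 with APOE, SCARB1 with PLTP, and ABCG1 with ABCA1 were neighbours whose ranges overlapped. H24 read APOE, PLTP, NR1H2, SCARB1, NR1H3, ABCG1 and ABCA1, and there PLTP and NR1H2 were the only neighbours with separate ranges.

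**Figure D3:**
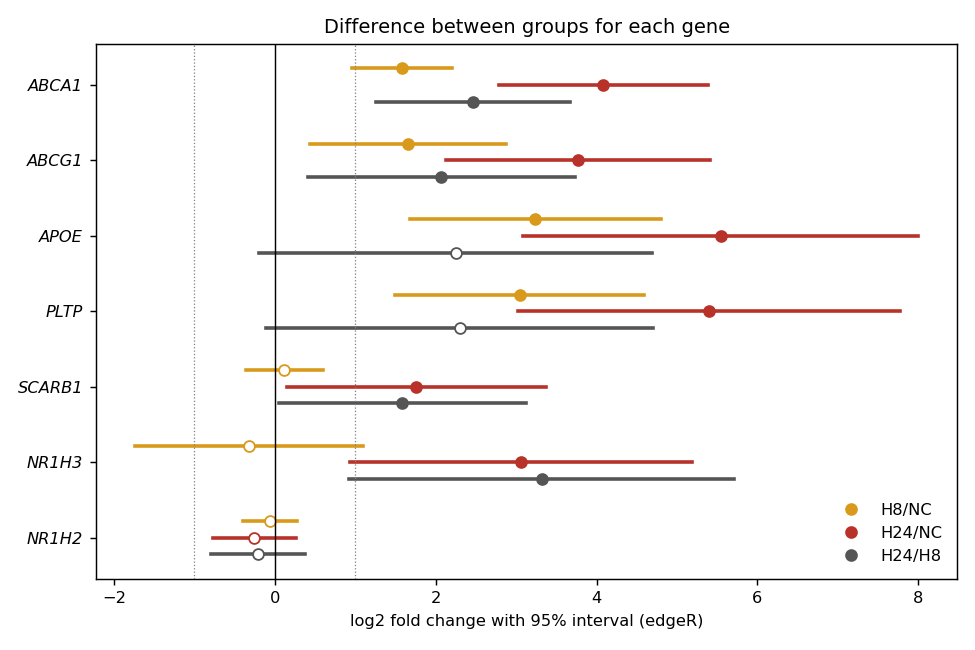
Log2 fold change with its 95% interval (edgeR quasi-likelihood fit) of each gene in H8 over NC, H24 over NC and H24 over H8, with filled points for genes past the study's thresholds and dotted lines at a log2 fold change of 1 in size. The 6 filled H24 over NC points run from 1.76 (SCARB1) to 5.54 (APOE), and all 3 NR1H2 intervals include 0.

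Against all genes tested, the counts read as follows. In H24 over NC 6 of the 7 genes were called higher, against 9.95% of 14828 genes higher and 1.52% lower, and the median log2 fold change was 3.77 for the 7 and 0.01 for all genes. In 6 of the 7 the H24 libraries all lay above the NC libraries, as they did for 12.8% of all genes, with 7.8% separated downwards. In edgeR 0% of genes passed an adjusted p of 0.05 with the fold threshold, although 2055 genes had an unadjusted p under 0.05. DESeq2 on the same counts passed 945 genes, 6.37%, among them 5 of the 7 (adjusted p = 0.110 for SCARB1).

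Without H24 replicate 3, 5 of the 7 genes were called higher in H24 than in NC, against 6.49% of genes. Of these ABCA1, ABCG1, APOE and PLTP passed at the adjusted level, against 2.1% of genes, with edgeR adjusted p of 0.00460 for ABCA1 and 0.0248 for ABCG1. NR1H3 did not pass there, at an edgeR adjusted p of 0.164. Leaving out this library thus made the folds smaller and the adjusted p-values lower for all 5.

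In H8 over NC 4 of the 7 were called higher, against 5.11% of 14336 genes, and none lower, against 2.27%. Libraries were separated upwards in 3 of the 7 (6.91% of genes) and downwards for NR1H2 (15.9% of genes). At the adjusted level edgeR passed 0.0279% of genes and none of the 7, while DESeq2 passed 4.27% and the same 4 genes. An unadjusted p under 0.05 was seen for 2124 genes. With scaling by library size in place of TMM factors, the median of all genes moved to -0.13 and the share of called genes that were higher from 69.2% to 55.7%, and the 4 genes stayed called. Without H8 replicate 2 the same 4 were called higher, against 4.11% of genes.

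In H24 over H8 ABCA1, ABCG1, SCARB1 and NR1H3 were called higher, against 7.22% of 14788 genes, and none lower, against 3.05%. Libraries were separated upwards for ABCA1, SCARB1 and NR1H3 (15.5% of genes) and downwards for none (6.31%). At the adjusted level edgeR passed 0.0135% of genes and none of the 7, with 2029 genes at an unadjusted p under 0.05, and DESeq2 passed 4.31%, ABCA1 and NR1H3 among them. Without H24 replicate 3 only ABCA1 and NR1H3 stayed called, against 3.75% of genes. Library-size scaling moved the median of all genes to 0.24 and the share of called genes that were higher from 70.3% to 83.3%. The 3 comparisons share groups and are not independent of each other.

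Macrophage markers differed between the groups too. The list holds CD68, CD163, CSF1R, ADGRE1, MRC1, CD14, AIF1, MSR1, C1QA, C1QB and C1QC. Of these 11 of 11 were called higher in H24 over NC (9.95% of all genes) and in H24 over H8 (7.22%). In H8 over NC 6 of 10 tested were called higher (5.11% of all genes). Without H24 replicate 3 the calls were 10 of 11 in H24 over NC (6.49%) and 1 of 11 in H24 over H8 (3.75%). The summed FPKM was 25.9 to 35.0 in NC, 33.5 to 191 in H8 and 184 to 2004 in H24. Not all of the efflux genes followed this sum. In H8 replicates 1 to 3 it was 191, 33.5 and 91.7, where NR1H3 measured 0.923, 2.48 and 0.561 FPKM. SCARB1, NR1H3 and NR1H2 were not called in H8 over NC.

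Set against that sum in each library, the 7 genes differed. APOE stood at 0.778 to 1.36 times the marker sum in NC, 1.97 to 3.13 in H8 and 1.75 to 1.95 in H24, with both diet groups above NC. The ratio for ABCA1 had overlapping ranges in all groups, with means of 0.0161 ± 0.00126, 0.0176 ± 0.00976 and 0.0162 ± 0.00801 (SD, n = 3 each) in NC, H8 and H24. For SCARB1 the ratio was 0.193 ± 0.0496 in NC and 0.0307 ± 0.0115 in H24 (SD, n = 3 each), so its FPKM differed by less than that of the markers. The smallest exact permutation p for any of these ratios was 0.1, the limit with 3 against 3. The part of macrophage number in the differences of the 7 genes was not tested.

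**Figure D4:**
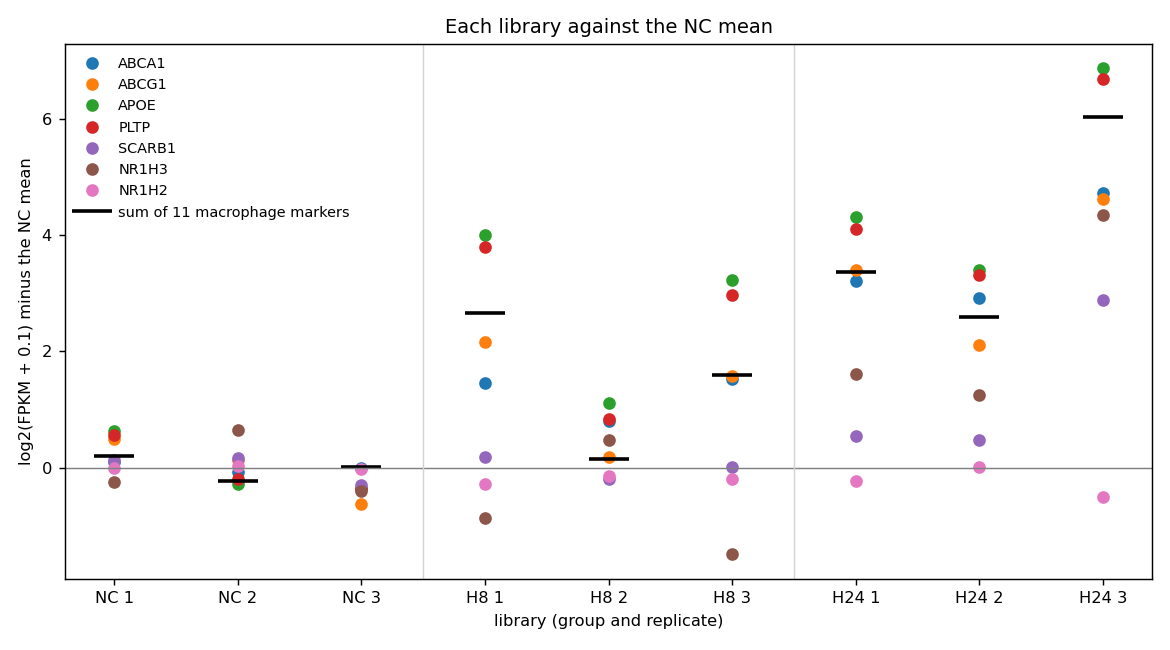
Difference of each library from the NC mean in log2(FPKM + 0.1), for the 7 genes (coloured points) and for the summed FPKM of 11 macrophage markers (black bars). APOE and PLTP lie above the bar in all H8 and H24 libraries, H8 replicate 2 lies near the NC libraries, and NR1H3, SCARB1 and NR1H2 lie below the bar in H24.

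Other genes of the pathway were read from 4 lists. Of all genes tested, 9.95% were called higher in H24 over NC, 5.11% in H8 over NC and 7.22% in H24 over H8. The shares called lower were 1.52%, 2.27% and 3.05%. Without H24 replicate 3, 6.49% were called higher in H24 over NC and 3.75% in H24 over H8. Among further LXR target genes, 4 of 7 tested were called higher in H24 over NC and none lower. SMPDL3A, an LXR-responsive phosphodiesterase, measured 1.16, 0.486 and 1.06 FPKM in NC, 14.1, 1.90 and 6.23 in H8, and 16.8, 6.18 and 99.2 in H24. Every diet library lay above every NC library, with log2 fold changes of 5.49 for H24 over NC (edgeR adjusted p = 0.132) and 3.15 for H8 over NC (edgeR adjusted p = 0.187). Leaving out H24 replicate 3 gave 3.64 for H24 over NC, with an edgeR adjusted p of 0.0140.

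LPL, lipoprotein lipase, was called higher in H24 over NC (3.40, edgeR adjusted p = 0.222), and was 1.65 without H24 replicate 3. It was not called in H8 over NC (0.25). CD5L, a secreted macrophage protein, was called higher in H24 over NC (4.96), but its FPKM was 0.204 and 0.0945 in H24 replicates 1 and 2 and 4.40 in replicate 3, and without replicate 3 it fell below the filter on low values. LPCAT3, which remodels membrane phospholipids, was also called (1.12) and was not without H24 replicate 3. In H8 over NC 2 of 6 tested were called higher, SMPDL3A and MERTK, and MERTK was not called without H8 replicate 2. In H24 over H8 2 of 7 were called higher with all libraries and none without H24 replicate 3. SREBF1, the LXR target that drives fatty acid synthesis, reached 0.94 in H24 over NC and did not pass the fold threshold, and MYLIP, which marks the LDL receptor for degradation, reached 0.50.

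Among genes that free, store, move or oxidise cholesterol inside the cell, 6 of 11 tested were called higher in H24 over NC. None was lower, and 4 of 11 were called higher without H24 replicate 3. The genes that oxidise it, CYP27A1 (-0.07) and CH25H (0.95), were not called in H24 over NC. CH25H was called higher in H24 over H8 (1.09). LIPA, the lysosomal acid lipase that releases cholesterol from its esters, measured 5.31, 2.92 and 3.88 FPKM in NC, 15.8, 4.23 and 9.13 in H8, and 24.6, 12.3 and 91.5 in H24. Its log2 fold change was 3.39 in H24 over NC (edgeR adjusted p = 0.135), 2.16 without H24 replicate 3, and 1.38 in H8 over NC, the only call of this list there. NCEH1, which hydrolyses stored cholesteryl ester, was higher by 2.33 in H24 over NC, and by 1.27 without H24 replicate 3. GRAMD1B, a sterol carrier between plasma membrane and endoplasmic reticulum, was higher by 2.07, but at a mean of only 0.273 FPKM in H24. SOAT1, which esterifies cholesterol for storage, was higher by 2.42, beside NPC1 and NPC2, which export cholesterol from lysosomes (1.17 and 1.81, neither called without H24 replicate 3). In H24 over H8 4 of 12 were called higher and 1 lower, and without H24 replicate 3 none was higher and STARD4 alone was lower. STARD4 was near the floor, at a mean of 0.172 FPKM in H8 and 0.029 in H24, with 8 to 18 counts per H24 library.

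Among receptor partners and co-regulators 1 of 9 was called higher and 1 lower in H24 over NC, against 9.95% and 1.52% of all genes. PPARG, a lipid-activated nuclear receptor of fat cells and macrophages, measured 0.948, 1.21 and 1.2 FPKM in NC and 3.96, 1.72 and 24.0 in H24 (log2 fold change 3.12, edgeR adjusted p = 0.227, and 1.31 without H24 replicate 3). PPARA, a nuclear receptor of fatty acid oxidation, measured 7.04, 7.23 and 7.21 in NC, 4.29, 2.36 and 4.96 in H8, and 3.36, 2.94 and 1.83 in H24. All its diet libraries lay below NC, and it was called lower in H24 over NC (-1.43, edgeR adjusted p = 0.136) but not in H8 over NC (-0.77). Over all genes 7.8% were separated downwards in H24 over NC and 15.9% in H8 over NC. RXRA, a partner of the LXRs, also had all its diet libraries below NC. It was not called (-0.38 in H24 over NC and -0.36 in H8 over NC), and no gene of the list was called in H8 over NC. In H24 over H8 1 of 9 was called higher, PPARG, and none without H24 replicate 3.

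Of the other sterol transporters and lipoprotein acceptors 5 were tested in H24 over NC and 1, ABCA7, was called higher (1.27, edgeR adjusted p = 0.239). Over all genes 9.95% were called higher there. ABCA7 was 0.91 without H24 replicate 3 and then not called. LIPC and LIPG, lipases that act on HDL, were at 0.58 and 0.09 and not called. None of the list was called in H8 over NC or H24 over H8, except ABCA7 in H8 over NC without H8 replicate 2. APOC1, ABCG4 and CETP were not analysed here.

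**Figure D5:**
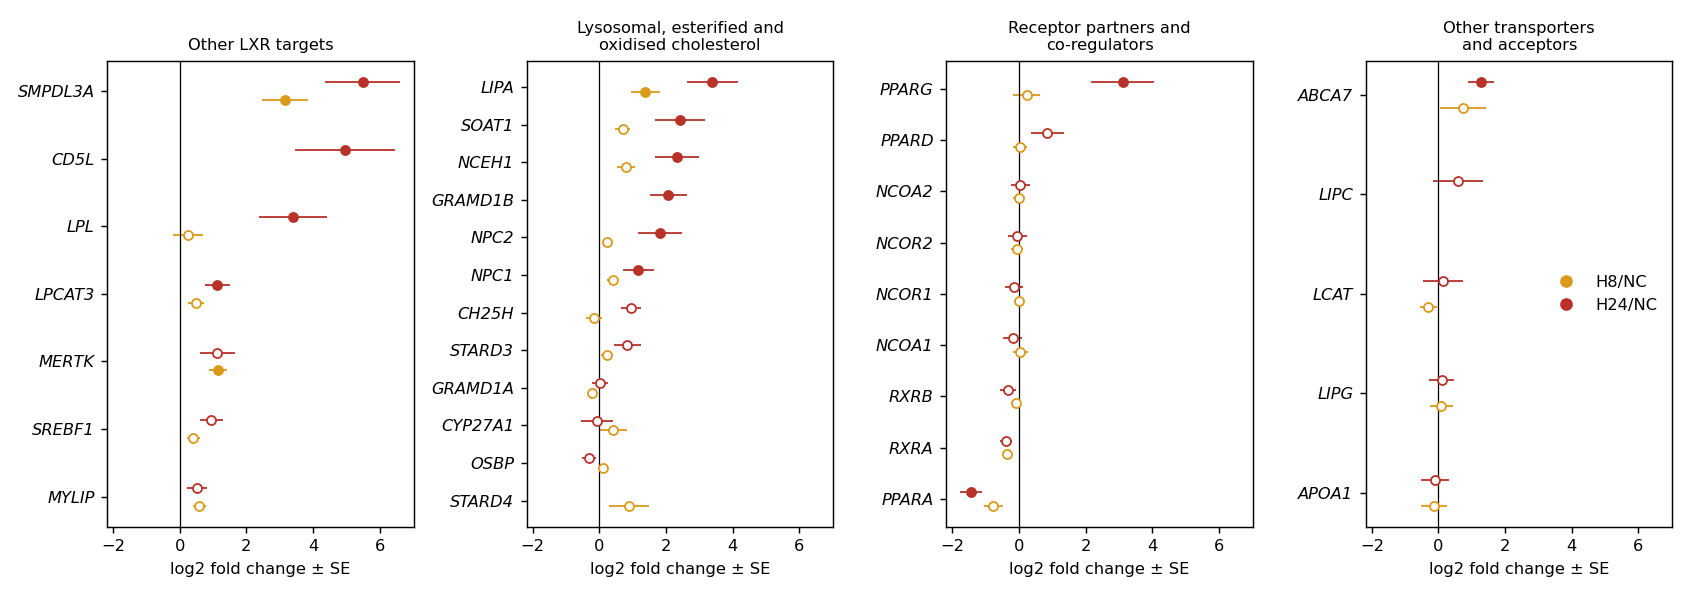
Log2 fold change with its standard error (edgeR) for the tested genes of the 4 pathway lists, in H8 over NC and H24 over NC, with filled points for genes past the study's thresholds. The largest H24 over NC values are those of SMPDL3A (5.49) and CD5L (4.96), and PPARA (-1.43) is the only filled point below 0.

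Genes with the most similar pattern to each of the 7 were ranked by Pearson's r of log2(FPKM + 0.1) over the 9 libraries, among 10771 genes, as a description only, since libraries differ in cell makeup and 1 library stands apart. TREM2, a lipid-sensing receptor of macrophages, was nearest to both APOE (r = 0.996) and PLTP (r = 0.996), followed by EVI2B and VAV1. ABCA1 was nearest to RASAL3 (0.987), MMP9 (0.984), a matrix protease, and CYTH4 (0.980). ABCG1 was nearest to OTULINL (0.990), SCIN (0.988) and RPS6KA1 (0.988). Leaving out H24 replicate 3 left these r values between 0.962 and 0.994.

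SCARB1 was nearest to GAREM2 (0.992), ALOX5AP (0.992) and DGKZ (0.990), and without H24 replicate 3 the last fell to 0.868. NR1H3 was nearest to DHRS1 (0.970), CSF1 (0.969), the macrophage growth factor, and ACVRL1 (0.968). NR1H2 was nearest to PPP1R3B (0.961), CNTFR (0.959) and ING1 (0.956). Among the 7 genes themselves APOE and PLTP were closest (r = 0.999), and r between APOE and NR1H3 was 0.583, or 0.0891 in the 8 libraries without H24 replicate 3.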

How the data were processed

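Poly(A) RNA of abdominal aorta was sequenced with paired-end reads in 9 libraries, 3 per group. The authors deposited, per gene and library, FPKM values and estimated counts. Per the study's methods reads were aligned to Sscrofa11.1, and the submitters' processing notes name HISAT2 2.0 and StringTie 1.3.0, and also Bowtie 0.12.2 and the mouse build mm8, whose role is not given. The labels' extraction text speaks of adipose tissue, although every sample is labelled abdominal aorta. How StringTie output became counts, and any use of strand, are not given in the sources used here. Groups follow the sample labels.

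Counts were rounded and tested in each pair of groups (6 libraries) with edgeR 4.0.16 (R 4.3.3; TMM factors, quasi-likelihood F test with trended dispersion) on genes whose mean FPKM reached 0.1, with Benjamini-Hochberg adjustment over all tested genes. The test was run on simulated counts with known changes, drawn from the means, dispersions and library sizes of these data. No simulated library was shifted as a whole, so the run cannot show how the test behaves with a library such as H24 replicate 3. Alternatives were DESeq2 1.42.0, limma 3.58.1 on log2(FPKM + pseudocount), other scalings and filters, a replicate block, all libraries in one fit, and leaving out each library. Ratios were compared by exact permutation. Intervals are those of log2 fold changes from the edgeR quasi-likelihood fit, and they include the spread between libraries. All 7 genes passed the filter.

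The 7 genes were chosen by role, not by their values. They, the lists and the tests were nonetheless chosen with earlier results of these data known. Named genes are the 7, the 3 of each pathway list with the smallest p in H24 over NC, and the 3 most similar to each of the 7. Other list genes and overlapping genes were named after their values were seen. 1 gene of the LXR target list is not reported here and is left out of its counts. No sequence is shown.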

Additional observations from a re-analysis of the deposited data

How the results depend on the processing

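Of the values of single genes among the 7 under all alternatives, 313 kept their direction and their side of the thresholds, 23 lost and 13 gained a call, and 7 changed sign. All sign changes were small values of H8 over NC: SCARB1 (0.12) became -0.023 with library size only, -0.0039, -0.0042 and -0.0038 with limma at pseudocounts of 0.1, 1 and 0.01, and -0.024 without NC replicate 3, and NR1H3 (-0.32) became 0.14 without NC replicate 2 and 0.066 without H8 replicate 3. Leaving out single libraries gave -0.024 to 0.23 for SCARB1 and -1.27 to 0.14 for NR1H3 there. The counts of called genes were 1700, 1059 and 1519 in H24 over NC, H8 over NC and H24 over H8. Limma on log2(FPKM + 1) gave 855, 343 and 694, and a mean FPKM of at least 1 gave 618 in H8 over NC, where it removed ABCA1. With limma on log2(FPKM + 1), 2 of the 7 were called in H8 over NC. Leaving out single libraries gave 1132 to 2251, 845 to 1244 and 804 to 2091 called genes, and 5 to 6, 3 to 5 and 2 to 6 of the 7. The lowest gene counts were without H24 replicate 3 in H24 over NC and without H8 replicate 2 in H24 over H8 (912 without H24 replicate 3), and 2 of the 7 were left there without H8 replicate 2, H8 replicate 3 or H24 replicate 3. With limma SCARB1 was not called in H24 over NC or H24 over H8 at any of the 3 pseudocounts (1.20 to 1.32). In H24 over H8 PLTP gained a call in 8 of its 17 alternatives and APOE in 4. The cause was not tested.

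Replicate numbers are not said to pair the samples. Deviations of same-numbered libraries from their group means correlated at -0.0798 to 0.0934. With means of only 3 libraries, these values cannot decide whether a pairing exists. With the replicate number as a block, 5, 4 and 3 of the 7 were called and 1364, 950 and 1275 genes. SCARB1 was then not called in H24 over NC (1.22) or H24 over H8 (1.10), nor NR1H3 in H24 over H8 (2.82), and PLTP was called there (2.02). Depth limits low genes most, such as GRAMD1B, at a mean of 0.273 FPKM in H24.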

Other observations

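Markers of other cells also differed between groups. The T lymphocyte marker sum was 0.165 to 0.362 FPKM in NC, 0.655 to 0.865 in H8 and 3.21 to 17.1 in H24. In H24 replicate 2 it rested on CD3E (15.8 FPKM, against 4.98 in replicate 3), while CD2, CD3D, CD3G and CD5 were highest in replicate 3. The fibroblast sum was 1405 to 1647 in NC, 2216 to 3462 in H8 and 1972 to 1998 in H24. COL1A1 and COL1A2 made up most of it. LUM and PDGFRA had their highest means in H24 instead (113 and 6.0 FPKM, against 24.2 and 3.42 in H8 and 17.1 and 2.11 in NC) and were called higher in H24 over NC. PLIN1, which coats fat droplets, averaged 8.68 FPKM in NC and 0.0371 in H8, and ADIPOQ, the adiponectin gene, 8.61 and 0.0934. In H24 replicates 1 to 3 PLIN1 measured 5.58, 0.134 and 0.213 FPKM and ADIPOQ 7.24, 0.0705 and 0.416. In H8 over NC 3 of 4 adipocyte markers tested were called lower, against 2.27% of all genes. ADIPOQ had an adjusted p of 0.0206 there in edgeR's quasi-likelihood test. Endothelial and smooth muscle lists had no called gene in any comparison.

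MMP9, the matrix protease with a pattern close to that of ABCA1 (r = 0.984 over 9 libraries), averaged 0.301 FPKM in NC, 1.76 in H8 and 155 in H24. PPP1R3B, the gene nearest to NR1H2, averaged 37.2 in NC, 15.2 in H8 and 21.5 in H24.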
